A study of Mus musculus with 11 samples.

Results

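The genes described here are 34 genes of the NF-kB pathway with the cytokines and chemokines it is known to drive. They were chosen by name with earlier results of these data known, so their shares against all genes below are a description and not a test. The genes were measured by RNA-seq in 11 libraries of primary mesenchymal stromal cells from the bone marrow of C57/BL6 mice. All 34 were among the 18712 genes present in both deposited tables, of 19259 genes in the ANXA2 knockout table and 19801 in the ANXA5 knockout table, and all 34 passed the filter on low values in every comparison. The groups compared were ANXA2 knockout cells (ANXA2 KO, n = 3), ANXA5 knockout cells (ANXA5 KO, n = 4) and wild type cells (WT, n = 4), all labelled untreated. Annexin A2 and annexin A5 are calcium-dependent proteins that bind membrane phospholipids. The sources used here do not give the knockout alleles, the age or sex of the mice, or whether each library came from its own animal or culture, so p-values measure only the spread between these libraries.

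NF-kB is a family of dimeric transcription factors made of the subunits encoded by Nfkb1, Nfkb2, Rel, Rela and Relb. In resting cells inhibitor proteins of the IkB family hold the dimers in the cytoplasm, and signals from cytokine or pattern-recognition receptors lead to destruction of the inhibitor and entry of the dimer into the nucleus. Its targets include its own inhibitors, which gives negative feedback, as well as adhesion molecules, cytokines such as interleukin 6 and chemokines that attract monocytes and neutrophils, and marrow stromal cells are a known source of several of these.

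The members were set in 5 roles. The 5 subunits are those named above. The 7 inhibitors and regulators were Nfkbia, Nfkbib and Nfkbie (IkB proteins), Nfkbiz and Bcl3 (nuclear IkB proteins that modulate transcription), Tnfaip3 (the ubiquitin-editing enzyme A20) and Tnip1 (a partner of A20). The 8 signalling and target genes were Birc2, Birc3, Traf1, Tnfaip2, Icam1, Irf1, Sod2 and Rcan1. The 7 cytokine genes were Il6, Il11, Lif, Csf1, Il1rn, Tnf and Il1b, and the 7 chemokine genes Ccl2, Ccl5, Ccl7, Cxcl1, Cxcl2, Cxcl5 and Cx3cl1.

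Promoter windows of RefSeq on GRCm38.p6, from 250 bases before to 50 bases after the gene start, matched 27 of the 34 members. The kappaB consensus, searched on both strands, was present in 15 of the 27 (55.6%), against 9.55% of 27025 genes with a window. The shorter motif GGNNTTTCC, which can overlap the consensus, was present in 12 of the 27 (44.4%) and in 6.62% of all genes, and 17 of the 27 (63.0%) held either motif, against 14.4%. The members were chosen as NF-kB genes, so this share is a description, and a match is not a measured binding site. The windows of 5 members are printed 5′ to 3′ on the strand of the gene because these genes carry the comparisons below, and capitals mark the bases of a match to either motif on either strand. They are Icam1 at chr9:21015690-21015989 on the plus strand, Nfkbia at chr12:55492598-55492897 on the minus strand, Cxcl1 at chr5:90890995-90891294 on the plus strand, Cxcl2 at chr5:90903649-90903948 on the plus strand and Il6 at chr5:30012864-30013163 on the plus strand.
Icam1: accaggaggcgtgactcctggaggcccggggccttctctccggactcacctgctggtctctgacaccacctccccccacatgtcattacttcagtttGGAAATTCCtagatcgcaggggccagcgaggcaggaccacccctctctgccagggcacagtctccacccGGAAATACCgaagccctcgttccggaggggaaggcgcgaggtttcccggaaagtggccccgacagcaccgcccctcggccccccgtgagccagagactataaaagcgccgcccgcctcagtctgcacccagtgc
Nfkbia: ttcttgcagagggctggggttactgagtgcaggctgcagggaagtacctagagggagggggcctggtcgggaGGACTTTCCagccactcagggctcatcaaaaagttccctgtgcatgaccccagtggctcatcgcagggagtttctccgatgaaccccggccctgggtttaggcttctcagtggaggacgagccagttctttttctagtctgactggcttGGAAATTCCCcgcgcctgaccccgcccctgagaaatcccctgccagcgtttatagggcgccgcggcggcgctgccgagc
Cxcl1: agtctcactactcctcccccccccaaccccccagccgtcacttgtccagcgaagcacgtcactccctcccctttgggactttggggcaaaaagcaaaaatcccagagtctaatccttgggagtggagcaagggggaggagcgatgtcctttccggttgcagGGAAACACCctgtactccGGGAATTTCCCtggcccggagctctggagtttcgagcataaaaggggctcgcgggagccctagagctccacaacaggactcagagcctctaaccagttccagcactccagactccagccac
Cxcl2: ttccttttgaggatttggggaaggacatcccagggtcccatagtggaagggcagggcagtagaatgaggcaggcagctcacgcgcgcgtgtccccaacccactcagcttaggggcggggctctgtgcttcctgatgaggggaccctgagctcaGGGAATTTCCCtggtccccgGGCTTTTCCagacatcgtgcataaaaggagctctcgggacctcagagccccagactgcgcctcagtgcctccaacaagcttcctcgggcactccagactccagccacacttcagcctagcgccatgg
Il6: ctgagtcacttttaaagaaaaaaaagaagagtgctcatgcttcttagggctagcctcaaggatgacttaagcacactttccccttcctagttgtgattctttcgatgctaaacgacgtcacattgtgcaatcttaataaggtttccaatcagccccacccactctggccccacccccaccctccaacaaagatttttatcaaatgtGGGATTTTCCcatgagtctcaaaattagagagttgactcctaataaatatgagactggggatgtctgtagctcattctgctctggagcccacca

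The Cxcl1 and Cxcl2 windows share the same match, GGGAATTTCC, which began 71 bases before the start in Cxcl1 and 97 bases before it in Cxcl2. The Nfkbia window held the same letters on the opposite strand, within 29 to 20 bases before the start. The Il6 window held GGGATTTTCC, beginning 44 bases before the start. The Icam1 window held no match to the full consensus and 2 matches to GGNNTTTCC on the opposite strand, GGTATTTCC at 84 to 76 bases and GGAATTTCC at 153 to 145 bases before the start.

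Libraries held 26127374 to 31995332 reads in ANXA2 KO, 27003312 to 35654634 in ANXA5 KO and 23304225 to 29146580 in WT. The deleted genes were measured first: Anxa2 was at 395, 304 and 272 CPM (reads scaled to a common library total after TMM adjustment) in ANXA2 KO libraries 1, 3 and 4, against 1058 to 1195 CPM in WT libraries, and Anxa5 was at 79.9 to 85.1 CPM in ANXA5 KO libraries, against 803 to 967 CPM in WT libraries. The stromal genes Col1a1 and Pdgfra were detected in every library. Markers of blood cells were present as well: the summed level of 15 macrophage markers was 3186 to 6244 CPM in ANXA2 KO, 4374 to 5443 CPM in ANXA5 KO and 3107 to 4720 CPM in WT, and that of 10 neutrophil markers was 11059 to 26195 CPM in ANXA2 KO, 16528 to 22995 CPM in ANXA5 KO and 11816 to 20994 CPM in WT, with no marker of either list at 0 in any library. In bulk RNA a change in the number of cells of a type and a change in RNA per cell cannot be told apart, and some members, such as Il1b, Tnf, Ccl5 and Il1rn, are known products of blood cells.

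The levels of the members spanned a wide range. On a scale per kilobase of exon (RPKM), Nfkbia was the member with the highest mean in all 3 groups, at 561 ± 72.7 RPKM in ANXA2 KO (SD, n = 3), 349 ± 64.2 RPKM in ANXA5 KO and 372 ± 53.8 RPKM in WT (SD, n = 4 each). Cxcl1, a chemokine that attracts neutrophils, averaged 363 ± 149 RPKM in ANXA2 KO (SD, n = 3), 148 ± 72.0 RPKM in ANXA5 KO and 230.4 ± 56.8 RPKM in WT (SD, n = 4 each). The lowest member was Cxcl5, another neutrophil chemokine, with a mean of 0.432 RPKM in ANXA2 KO, 0.453 RPKM in ANXA5 KO and 0.543 RPKM in WT. Exon lengths came from an older annotation than the one used for counting, so these levels are approximate.

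**Figure D1:**
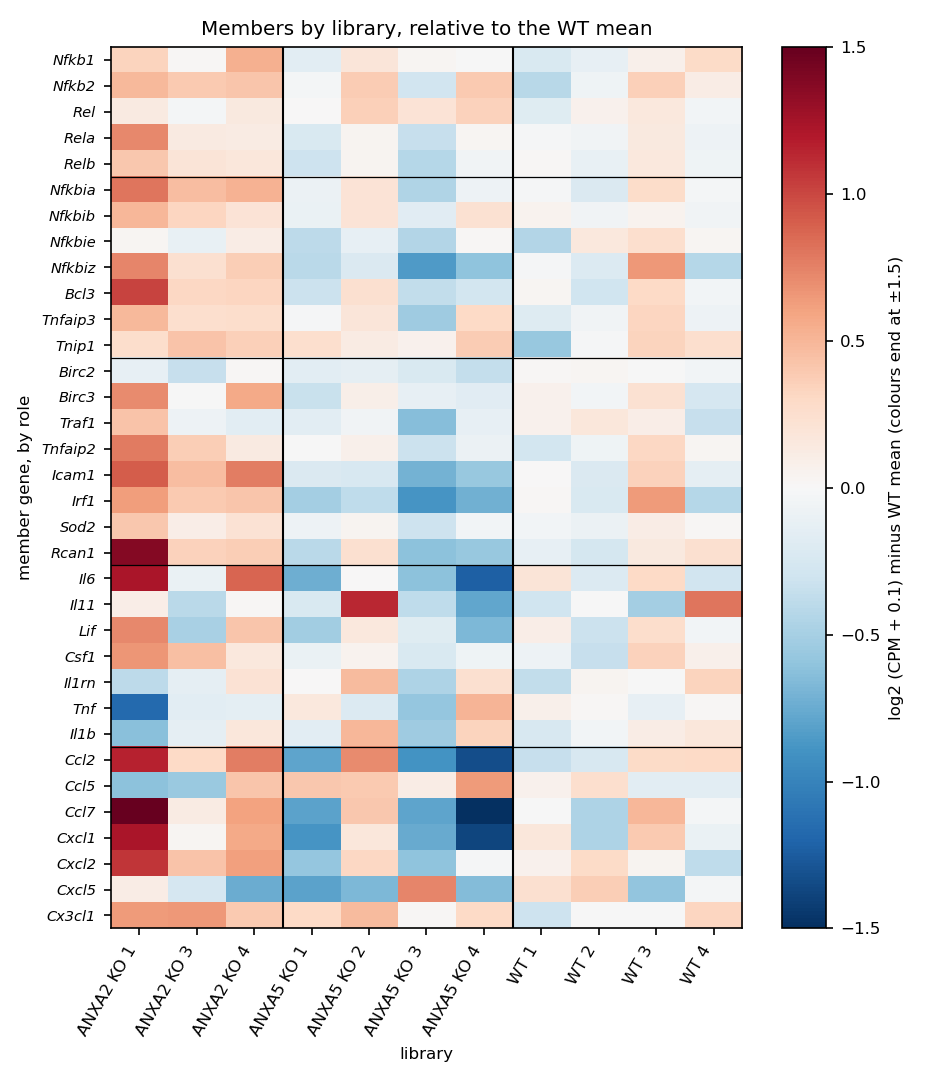
Level of each of the 34 members (rows, grouped by role with lines between roles) in each of the 11 libraries (columns), as log2 of CPM + 0.1 minus the mean of the 4 WT libraries, with red above and blue below that mean and colours ending at 1.5. ANXA2 KO library 1 and WT library 3 are the reddest columns of their groups, and ANXA5 KO library 3 is blue for most members.

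The first question was whether these genes differed between ANXA2 KO and WT. The data show higher mean levels of most members in ANXA2 KO cells without one that passed the test: 27 of 34 members had a log2 difference above 0, against 54.1% of the 16123 genes tested, and the median over the members was 0.36 on the log2 scale, against 0.02 over all genes. The members farthest above WT were chemokine, cytokine and target genes, with Ccl7, Rcan1, Ccl2, Il6, Icam1 and Cxcl2 at 1.65 to 1.83 times the WT mean. With limma-trend on log2(normalised reads + 1) and Benjamini-Hochberg adjustment over all genes, 0 of 34 members passed an adjusted p of 0.05, where 0.112% of all genes did, 0.0558% in each direction. At an unadjusted p under 0.05, 17 members were higher, where 4.65% of all genes were, and 0 were lower, where 4.04% of all genes were. Of the other tools, edgeR and limma-voom called 0 members, with 14 and 13 higher at an unadjusted p under 0.05, and DESeq2 called 2, with 19. The share of all genes at an unadjusted p was not computed for these tools. The authors' deposited table of DESeq2 values gave 2, Nfkbia and Icam1, where 0.593% of its genes passed. It came from the same tool and the same reads as the DESeq2 fit here, so it is not a second result.

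By role, the log2 difference from WT was above 0 for 5 of 5 subunits, 7 of 7 inhibitors, 7 of 8 signalling and target genes, 3 of 7 cytokines and 5 of 7 chemokines. In normalised reads the libraries of the groups did not overlap for 10 members that were higher in ANXA2 KO (background 4.56%). These were Nfkb2, Relb, Nfkbia, Nfkbib, Bcl3, Icam1, Rcan1, Ccl2, Cxcl2 and Cx3cl1. The libraries also did not overlap for 1 member that was lower, Tnf (background 4.63%).

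Among the subunits, Nfkb2, the precursor of the p52 subunit, had 3984, 3739 and 3764 normalised reads in ANXA2 KO libraries 1, 3 and 4, against 2107, 2681, 3651 and 3038 in WT libraries 1 to 4. Every ANXA2 KO library stood above every WT library, and the log2 difference was 0.44 (SE 0.171; limma adjusted p = 0.564). Relb, the usual partner of p52, averaged 1368 ± 123 normalised reads in ANXA2 KO (SD, n = 3) and 1139 ± 104 in WT (SD, n = 4), a log2 difference of 0.27. Rela, which encodes p65, had 9554, 6390 and 6297 normalised reads in ANXA2 KO, against 5656, 5573, 6422 and 5446 in WT. Library 1 alone stood apart for Rela, and the other two ANXA2 KO libraries lay within the WT range. Nfkb1 and Rel averaged 1967 ± 338 and 1241 ± 76.2 normalised reads in ANXA2 KO (SD, n = 3), against 1592 ± 257 and 1166 ± 120 in WT (SD, n = 4), with overlapping libraries.

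Among the inhibitors, Nfkbia, which encodes IkB alpha and is itself a classical NF-kB target, had 27335, 21672 and 22440 normalised reads in ANXA2 KO, against 15332, 13354, 18970 and 15182 in WT. Every ANXA2 KO library was above the highest WT library, WT 3, and the log2 difference was 0.60 (SE 0.158; limma adjusted p = 0.463). The authors' deposited table gave Nfkbia an adjusted p of 0.0483. Nfkbib was at 1537, 1362 and 1251 normalised reads in ANXA2 KO, against 1116, 1042, 1133 and 1042 in WT, also with no overlap. Bcl3 had 6505, 4027 and 4029 normalised reads in ANXA2 KO, against 3256, 2603, 3990 and 3109 in WT. Its groups were separated by a narrow margin between ANXA2 KO libraries 3 and 4 and WT library 3, and the log2 difference was 0.56 (SE 0.202; limma adjusted p = 0.543). Tnfaip3 averaged 3585 ± 328 normalised reads in ANXA2 KO (SD, n = 3) and 2849 ± 485 in WT (SD, n = 4), with overlap, and Nfkbie was nearly level, at 1206 ± 90.6 and 1208 ± 244.

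Among the signalling and target genes, Icam1 (ENSMUSG00000037405.9), the adhesion molecule that binds leukocyte integrins, had 17142, 12612 and 15483 normalised reads in ANXA2 KO, against 9049, 7779, 11558 and 8204 in WT. Each ANXA2 KO library was above each WT library. The mean was 1.65 times that of WT and the log2 difference 0.73 (SE 0.170, 95% interval 0.34 to 1.11; limma adjusted p = 0.393), and the authors' deposited table gave an adjusted p of 0.0251. Rcan1, an inhibitor of the phosphatase calcineurin, had 19296, 9514 and 9574 normalised reads in ANXA2 KO, against 6755, 6167, 8264 and 8696 in WT. Its log2 difference of 0.71 rested mostly on ANXA2 KO library 1, which was far above the rest. Birc3 and Tnfaip2 had log2 differences of 0.43 and 0.44 with overlapping libraries. Birc2, which encodes cIAP1, was the single gene of this role below WT, at 856 ± 107 normalised reads in ANXA2 KO (SD, n = 3) and 940 ± 20.5 in WT (SD, n = 4).

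The cytokines had no common direction. Il6 had 3425, 1368 and 2668 normalised reads in ANXA2 KO, against 1655, 1258, 1807 and 1187 in WT. ANXA2 KO libraries 1 and 4 lay above all WT libraries and library 3 lay within their range, with a log2 difference of 0.67 (SE 0.293; limma adjusted p = 0.573). Csf1, the growth factor of macrophages, averaged 11453 ± 2009 normalised reads in ANXA2 KO (SD, n = 3) and 8517 ± 1754 in WT (SD, n = 4). Tnf ran the other way, at 73.3, 151 and 151 normalised reads in ANXA2 KO, against 176, 168, 155 and 169 in WT. ANXA2 KO library 1, the highest for Il6, was the lowest for Tnf, and that library also had the lowest summed macrophage markers of its group, 3186 CPM. Of that sum, 2294 CPM came from the marker Lyz2 alone. The part of macrophages in the Tnf level was not tested. Il1b averaged 4049 ± 1067 normalised reads in ANXA2 KO (SD, n = 3) and 4531 ± 577 in WT (SD, n = 4), and Il1rn, Il11 and Lif likewise overlapped.

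Among the chemokines, Cxcl2, which attracts neutrophils, had 2274, 1468 and 1652 normalised reads in ANXA2 KO, against 1118, 1311, 1118 and 820 in WT. The libraries did not overlap, and the log2 difference was 0.71 (SE 0.192; limma adjusted p = 0.471). Cx3cl1, a membrane-bound chemokine, had 1279, 1288 and 1076 normalised reads in ANXA2 KO, against 653, 810, 817 and 1013 in WT, a log2 difference of 0.57 with no overlap. Ccl2, which attracts monocytes, had 3922, 2173 and 2999 normalised reads in ANXA2 KO, against 1371, 1486, 2162 and 2149 in WT. Its lowest ANXA2 KO library exceeded the highest WT library by a narrow margin in normalised reads. In CPM the groups overlapped, with Ccl2 at 82.1 in ANXA2 KO library 3 and 82.3 in WT library 4. The log2 difference of Ccl2 was 0.75 (SE 0.234, limma adjusted p = 0.518). Ccl7 and Cxcl1 had log2 differences of 0.78 and 0.62 with overlapping libraries: Ccl7 reached 6393 normalised reads in ANXA2 KO library 1 and 2319 in library 3, and Cxcl1 reached 25941 in library 1 and 11420 in library 3. Ccl5 and Cxcl5 had means below WT with overlap, at 89.0 ± 39.6 and 21.2 ± 6.87 normalised reads in ANXA2 KO (SD, n = 3), against 101 ± 14.3 and 26.5 ± 7.75 in WT (SD, n = 4).

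The members varied together within groups. ANXA2 KO library 1 was the highest of its group for 24 of 34 members and library 3 the lowest for 21, and WT library 3 was the highest of WT for 22. The number of members at an unadjusted p under 0.05 was 17 with all libraries and 6 without ANXA2 KO library 1. It was 8 without WT library 1, 6 without WT library 2, 10 without WT library 4 and 21 without WT library 3. In these fits 0 members passed the adjusted test. The share of all genes at an unadjusted p was not computed when a library was left out, so these counts have no background beside them.

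**Figure D2:**
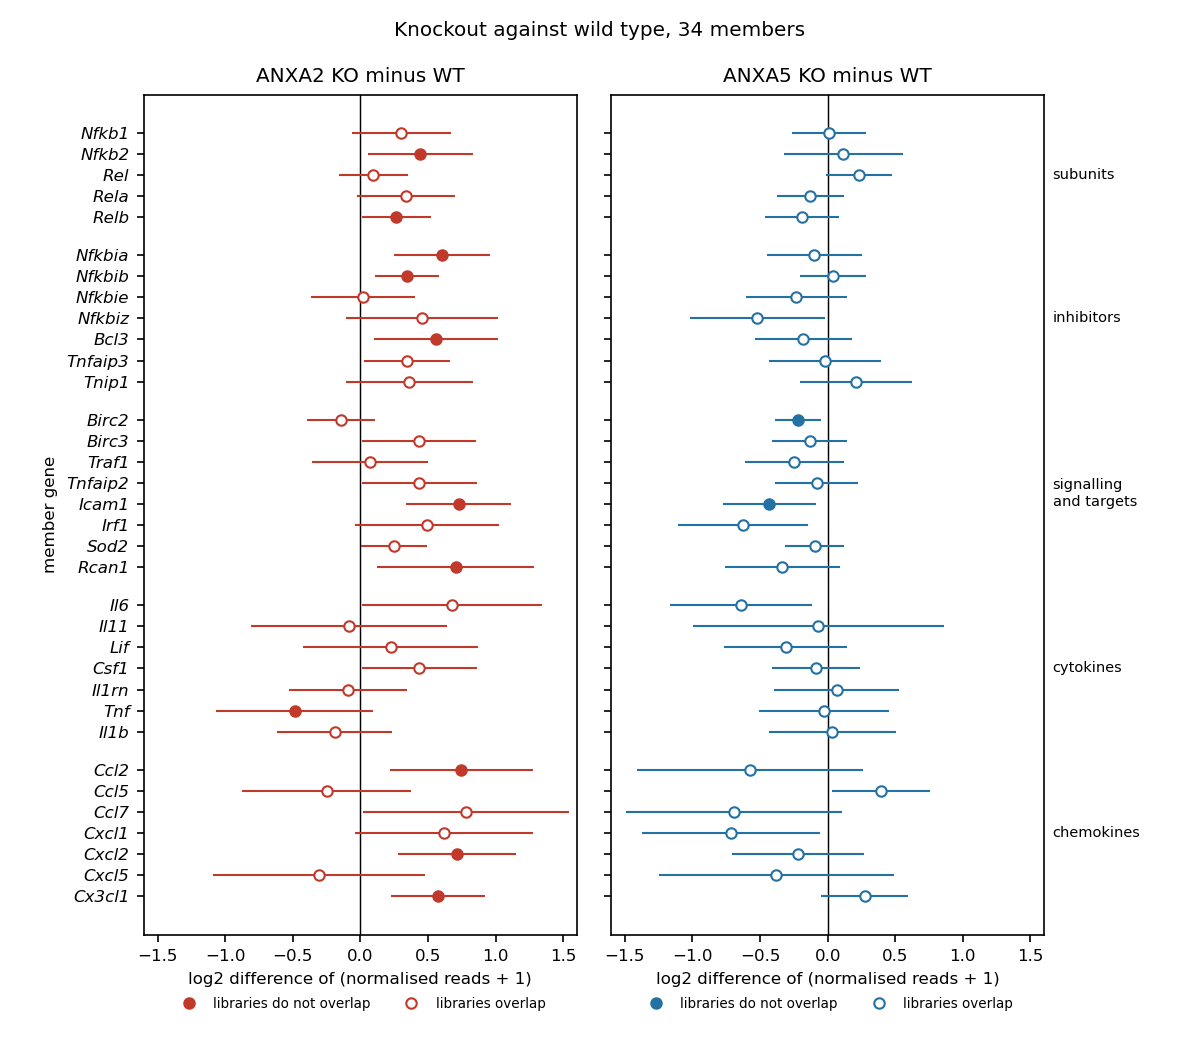
Log2 difference of normalised reads + 1 from WT (horizontal axis) for each of the 34 members (vertical axis, by role) in ANXA2 KO on the left and ANXA5 KO on the right, with 95% intervals from limma; filled points mark members whose libraries do not overlap between the groups. Most points lie right of 0 in ANXA2 KO and left of 0 in ANXA5 KO, and none passed the adjusted test.

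The second question was the same for the knockout of ANXA5. The data show small differences that mostly ran below WT: 9 of 34 members had a log2 difference above 0, against 52% of the 16224 genes tested, with a median of -0.13 against 0.01 over all genes. The members farthest below WT were Irf1, Cxcl1, Il6, Nfkbiz and Ccl7, at 0.626 to 0.681 times the WT mean. In the limma-trend test 0 of 34 members passed an adjusted p of 0.05, where 0.0308% of all genes did (0.0185% higher, 0.0123% lower). At an unadjusted p under 0.05, 6 members were lower (Nfkbiz, Birc2, Icam1, Irf1, Il6 and Cxcl1), where 5.45% of all genes were, and 1 was higher (Ccl5), where 6.48% of all genes were. edgeR, limma-voom and DESeq2 also called 0 members, with 5, 6 and 6 lower at an unadjusted p under 0.05. The share of all genes at an unadjusted p was again not computed for these tools. The authors' deposited table, from DESeq2 on the same reads, called 0 members, where 1.76% of its genes passed. Both knockouts were set against the same 4 WT libraries, so their differences from WT are not independent of each other.

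The subunits and inhibitors showed no common direction in ANXA5 KO, with 3 of 5 and 2 of 7 above 0. Rela averaged 5832 ± 814 normalised reads in ANXA5 KO and 6337 ± 511 in WT (SD, n = 4 each), and Nfkb1 1748 ± 168 and 1747 ± 285. Nfkbia had 16059, 19746, 12406 and 16528 normalised reads in ANXA5 KO libraries 1 to 4, against 16768, 14616, 20951 and 16648 in WT libraries 1 to 4. The groups overlapped throughout, with a log2 difference of -0.10 (SE 0.157, 95% interval -0.45 to 0.25). Nfkbiz, the nuclear IkB protein that is known to be needed for Il6 induction, had 6724, 7640, 4889 and 5968 normalised reads in ANXA5 KO, against 8751, 7695, 14221 and 6600 in WT. WT library 3 was the highest by a wide margin, and the log2 difference was -0.52 (SE 0.225; limma adjusted p = 0.408).

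All 8 signalling and target genes had log2 differences below 0, and the libraries did not overlap for 2 of the 34 members, Birc2 and Icam1, where 3.36% of all genes were lower with no overlap and 3.01% higher; 0 members were higher with no overlap. Icam1 had 8513, 8408, 6012 and 6815 normalised reads in ANXA5 KO, against 9897, 8515, 12765 and 8996 in WT. The highest ANXA5 KO library and the lowest WT library, WT 2, differed by few reads, and the log2 difference was -0.43 (SE 0.155, 95% interval -0.78 to -0.09; limma adjusted p = 0.342). Irf1, a transcription factor of the interferon response, had 5758, 6310, 4434 and 5061 normalised reads in ANXA5 KO, against 8303, 7029, 13023 and 6080 in WT. The groups overlapped through ANXA5 KO library 2 and WT library 4, and the log2 difference was -0.63 (SE 0.215; limma adjusted p = 0.331). Birc2 was at 887 ± 53.3 normalised reads in ANXA5 KO and 1032 ± 22.7 in WT (SD, n = 4 each), a log2 difference of -0.22 with a small SE of 0.0770 (limma adjusted p = 0.340).

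Il6 had 955, 1601, 1033 and 689 normalised reads in ANXA5 KO, against 1810, 1377, 1996 and 1301 in WT. ANXA5 KO library 2 lay within the WT range and the others lay below it, with a log2 difference of -0.64 (SE 0.235; limma adjusted p = 0.350). Cxcl1 had 6529, 13569, 7124 and 4750 normalised reads in ANXA5 KO, against 13510, 8752, 16172 and 11305 in WT. Library 2 again reached the WT levels, and the log2 difference was -0.71 (SE 0.295; limma adjusted p = 0.390). Ccl2 was likewise highest in library 2, at 1110, 3140, 1025 and 776 normalised reads in ANXA5 KO, against 1499, 1627, 2388 and 2357 in WT. Its log2 difference was -0.58 with a wide interval, -1.41 to 0.26. Ccl5, a chemokine of T cells and monocytes, was the one member with an unadjusted p under 0.05 above WT, at 145, 144, 118 and 175 normalised reads in ANXA5 KO, against 114, 131, 99.0 and 97.8 in WT (log2 difference 0.39, SE 0.163; limma adjusted p = 0.388). Its groups overlapped, and Tnf and Il1b were nearly level, at 187 ± 62.2 and 5270 ± 1655 normalised reads in ANXA5 KO, against 183 ± 8.87 and 4973 ± 647 in WT (SD, n = 4 each).

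ANXA5 KO library 2 was the highest of its group for 23 of 34 members and library 3 the lowest for 23. The number of members lower at an unadjusted p under 0.05 was 6 with all libraries. It was 11 without ANXA5 KO library 2, 1 without ANXA5 KO library 4 and 2 without WT library 3. The share of all genes was likewise not computed when a library was left out. Markers of other cells moved with this comparison. All 15 macrophage markers had log2 differences above 0 in ANXA5 KO, 10 of them at an unadjusted p under 0.05 (background 6.48%), with a median of 0.40. Of 9 endothelial markers, 7 were higher and 1 was lower at an unadjusted p under 0.05 (background 6.48% and 5.45%). The summed endothelial markers were at 186 to 279 CPM in ANXA5 KO and 145 to 190 CPM in WT. Tek, which is in these sums, was at 54.3 to 67.6 CPM in ANXA5 KO and 66.0 to 111 CPM in WT. The part of macrophages and endothelial cells in the levels of the members was not tested.

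The third question was whether the knockouts differed from each other. Icam1 rose in ANXA2 KO relative to ANXA5 KO and was the 1 member of 34 that passed the test, where 0.267% of the 16494 genes tested passed and 0.158% passed with higher and 0.109% with lower levels. It had 650, 477 and 588 CPM in ANXA2 KO libraries 1, 3 and 4, against 297, 293, 211 and 234 CPM in ANXA5 KO libraries 1 to 4. The lowest ANXA2 KO library was above the highest ANXA5 KO library by a wide gap, the mean was 2.21 times as high, and the log2 difference was 1.14 (SE 0.169; edgeR quasi-likelihood adjusted p = 0.0157). The 4 WT libraries lay between, at 347, 297, 437 and 314 CPM, with WT library 2 level with the highest ANXA5 KO library. The call was lost without ANXA2 KO library 1 (adjusted p = 0.0812), ANXA5 KO library 3 (0.0651) or ANXA5 KO library 4 (0.0790), with log2 differences that stayed at 1.05 to 1.09.

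**Figure D3:**
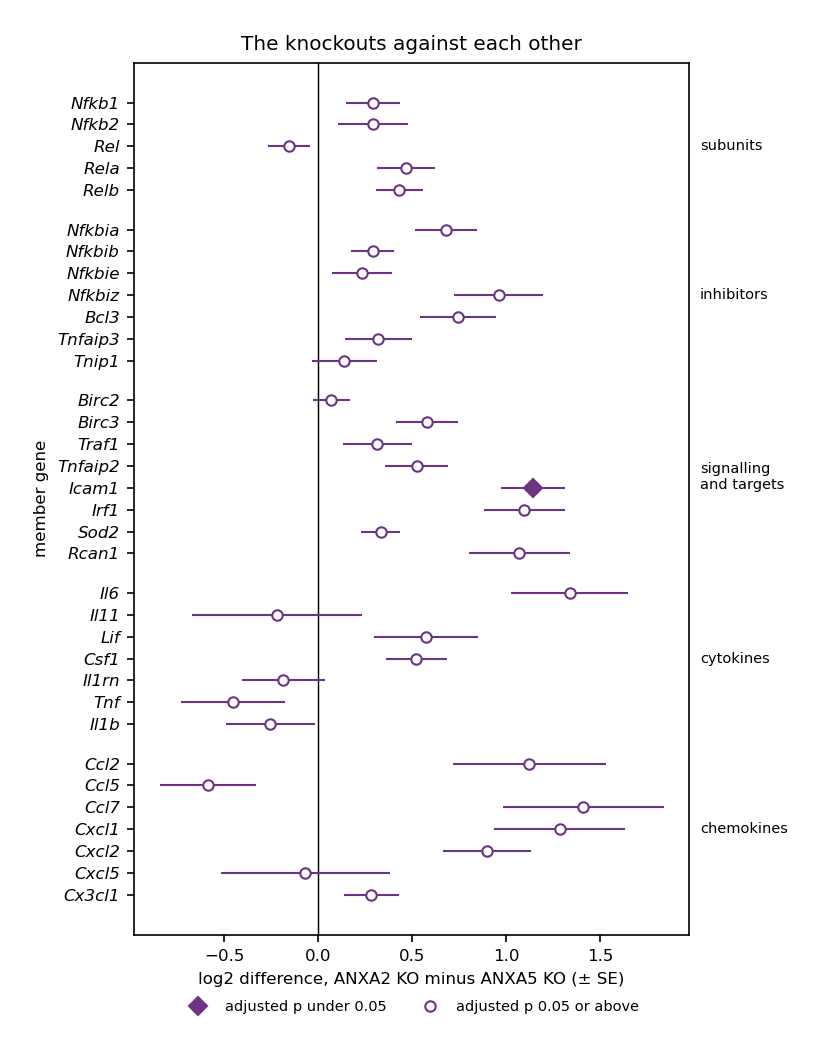
Log2 difference of ANXA2 KO minus ANXA5 KO (horizontal axis) for each of the 34 members (vertical axis, by role), with an SE derived from the edgeR test as bars. The filled diamond, Icam1 at 1.14, is the one member past the adjusted test, and 27 of 34 points lie right of 0.

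Of the 34 members, 27 had a log2 difference above 0, against 49.3% of all genes, and the median was 0.38, against -0.00. At an unadjusted p under 0.05, 18 members were higher in ANXA2 KO (background 7.41%) and 1 was lower, Ccl5 (background 6.58%). The libraries did not overlap for 13 members, all higher in ANXA2 KO, where 6.11% of all genes were higher with no overlap and 6.63% lower. DESeq2 called 9 members (Nfkbia, Nfkbiz, Bcl3, Icam1, Irf1, Rcan1, Il6, Cxcl1 and Cxcl2), all higher in ANXA2 KO, where it called 2.29% of all genes with an adjusted p, and limma-trend 1, Icam1. Markers of other cells mostly stood lower in ANXA2 KO in this comparison. Of 9 endothelial markers, 5 were lower at an unadjusted p under 0.05 and 5 with no overlap. Their median log2 difference was -0.86, with 1 of 9 above 0. Of 15 macrophage markers, 2 were lower at an unadjusted p under 0.05, with 3 of 15 above 0 (median -0.27). The summed endothelial markers were at 140 to 206 CPM in ANXA2 KO and 186 to 279 CPM in ANXA5 KO, and the part of these cells in the levels of the members was not tested.

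The inhibitors and target genes gave the most even picture, with 7 of 7 and 8 of 8 above 0. Irf1 had 444, 377 and 384 CPM in ANXA2 KO, against 201, 220, 156 and 173 CPM in ANXA5 KO. The groups were far apart with tight libraries, and the log2 difference was 1.10 (SE 0.216; edgeR adjusted p = 0.0747), just short of the threshold. Irf1 passed in a fit of the knockouts alone (edgeR adjusted p = 0.0209) and without WT library 3 (edgeR adjusted p = 0.0106), which held the highest Irf1 level of WT. It did not pass in any fit that left out a knockout library. Its edgeR adjusted p there ran from 0.0664 without ANXA2 KO library 4 to 0.299 without ANXA2 KO library 1. Nfkbia had 1037, 819 and 853 CPM in ANXA2 KO, against 560, 688, 435 and 566 CPM in ANXA5 KO, a log2 difference of 0.68 (SE 0.164; edgeR adjusted p = 0.142). Nfkbiz had 516, 365 and 400 CPM in ANXA2 KO, against 234, 266, 172 and 204 CPM in ANXA5 KO, a log2 difference of 0.96 (SE 0.235; edgeR adjusted p = 0.147). Both genes had no overlap between the knockouts. Bcl3 and Rcan1 had log2 differences of 0.74 and 1.07, again without overlap, and with library 1 the highest of ANXA2 KO and library 2 the highest of ANXA5 KO for both. Among the subunits, Relb averaged 51.9 ± 4.67 CPM in ANXA2 KO (SD, n = 3) and 38.4 ± 5.84 CPM in ANXA5 KO (SD, n = 4), and Rela 281 ± 70.4 and 203 ± 26.9 CPM.

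Ccl7, Il6 and Cxcl1 had the largest log2 differences of the 34 members, with larger SEs than Icam1. Il6 had 130, 51.7 and 101 CPM in ANXA2 KO, against 33.3, 55.8, 36.2 and 23.6 CPM in ANXA5 KO. ANXA5 KO library 2 exceeded ANXA2 KO library 3, and the log2 difference was 1.34 (SE 0.309; edgeR adjusted p = 0.129). Cxcl1 had 984, 432 and 626 CPM in ANXA2 KO, against 228, 473, 250 and 163 CPM in ANXA5 KO, and Ccl7 had 242, 87.6 and 122 CPM in ANXA2 KO, against 46.0, 107, 46.5 and 27.0 CPM in ANXA5 KO. The same 2 libraries overlapped in both genes, whose log2 differences were 1.29 (SE 0.349; edgeR adjusted p = 0.175) and 1.41 (SE 0.427; edgeR adjusted p = 0.204). Ccl2 had 149, 82.1 and 114 CPM in ANXA2 KO, against 38.7, 109, 35.9 and 26.6 CPM in ANXA5 KO (log2 difference 1.12, SE 0.405; edgeR adjusted p = 0.272), and it passed the test when ANXA5 KO library 2 was left out. Cxcl2 had 86.2, 55.5 and 62.8 CPM in ANXA2 KO, against 27.4, 51.0, 27.0 and 40.7 CPM in ANXA5 KO, a log2 difference of 0.90 without overlap. Csf1 had 508, 438 and 356 CPM in ANXA2 KO, against 299, 331, 272 and 305 CPM in ANXA5 KO, also without overlap. Tnf, Il1b and Il1rn, the cytokines known from blood cells, averaged 4.74 ± 1.70, 154 ± 40.6 and 30.6 ± 6.57 CPM in ANXA2 KO (SD, n = 3), against 6.49 ± 2.09, 183 ± 56.6 and 34.7 ± 9.08 CPM in ANXA5 KO (SD, n = 4), with overlap in each.

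**Figure D4:**
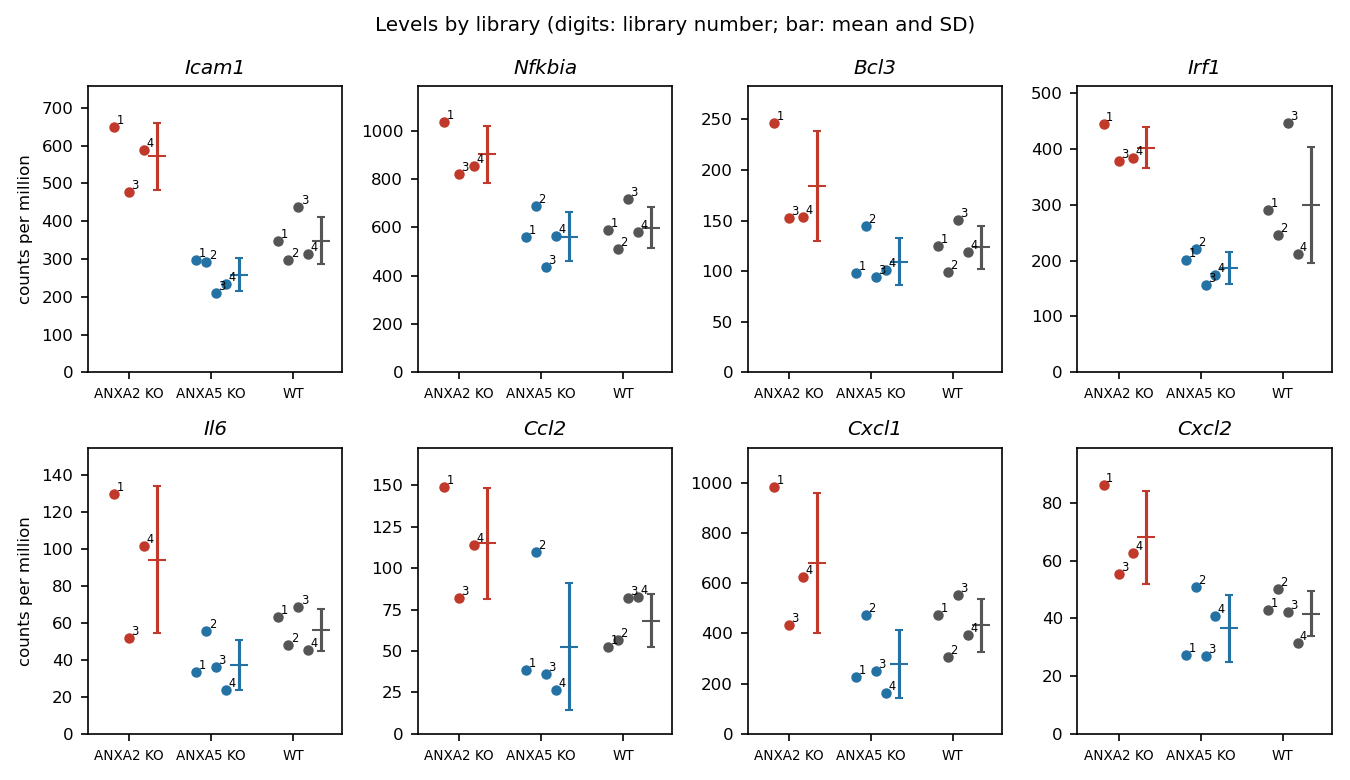
CPM (vertical axes, from 0) of 8 members in each library of ANXA2 KO, ANXA5 KO and WT, with digits for the library number and a bar for the mean and SD of the group. The ANXA2 KO and ANXA5 KO points of Icam1, Nfkbia, Bcl3, Irf1 and Cxcl2 do not overlap, while those of Il6, Ccl2 and Cxcl1 overlap through ANXA2 KO library 3 and ANXA5 KO library 2.

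The libraries were also compared in 20 immediate early genes, which are induced within minutes of serum, handling or stress in many cell types and hold none of the members. Their summed level was 42983, 31470 and 27588 CPM in ANXA2 KO libraries 1, 3 and 4, 20508, 24227, 16123 and 18185 CPM in ANXA5 KO libraries 1 to 4, and 25210, 22023, 34511 and 22115 CPM in WT libraries 1 to 4. The summed level of the 34 members was 7569, 5233 and 5730 CPM in ANXA2 KO, 3556, 4642, 3037 and 3548 CPM in ANXA5 KO, and 4147, 3762, 5395 and 4176 CPM in WT. In both sums ANXA2 KO library 1, ANXA5 KO library 2 and WT library 3 were the highest of their groups, while the order of the other libraries differed between the sums in ANXA2 KO and WT. Between the knockouts, 20 of 20 immediate early genes had a log2 difference above 0, with a median of 0.74, 16 were higher in ANXA2 KO at an unadjusted p under 0.05 (background 7.41%), and 0 passed the adjusted edgeR test. Against WT, 20 of 20 were above 0 in ANXA2 KO (median 0.35) and 2 of 20 in ANXA5 KO (median -0.25). The part of these genes' signal in the levels of the members was not tested.

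**Figure D5:**
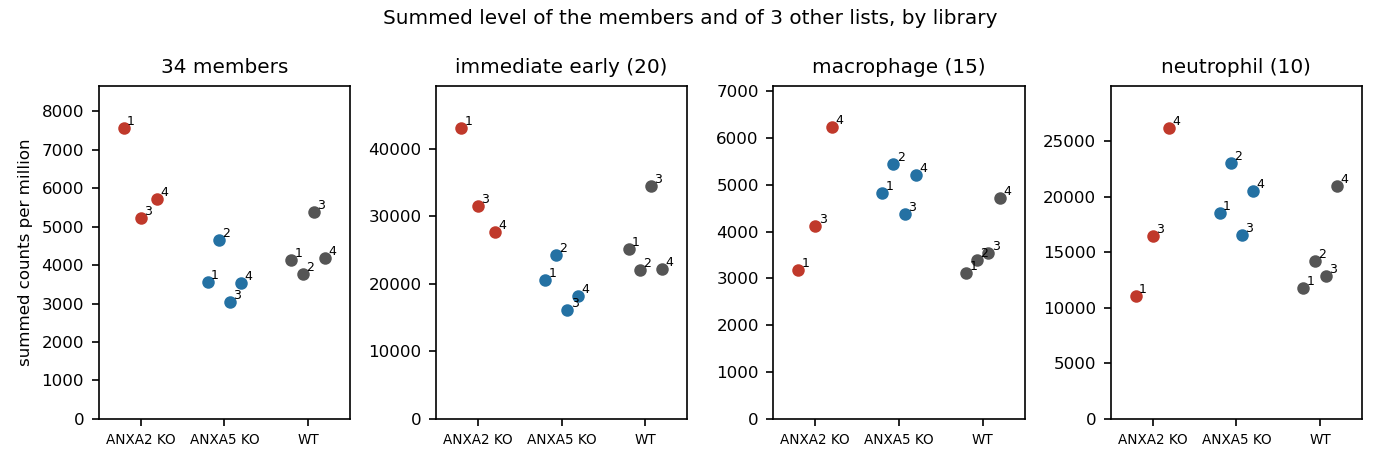
Summed CPM (vertical axes, from 0) of the 34 members, 20 immediate early genes, 15 macrophage markers and 10 neutrophil markers in each library of ANXA2 KO, ANXA5 KO and WT, with digits for the library number. Within each group the same library is highest for the members and for the immediate early genes, and ANXA2 KO library 1 is the lowest of its group for the macrophage and neutrophil markers.

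Other genes of the pathway were read from lists of 139 receptors, adaptors, kinases, regulators, targets, cytokines, chemokines and their receptors, of which 134 were in both tables. In all 3 comparisons 0 of them passed the adjusted test (limma-trend against WT, edgeR between the knockouts). At an unadjusted p under 0.05, 9 of 134 were higher and 1 lower in ANXA2 KO than in WT, where 4.65% and 4.04% of all genes were (median log2 difference 0.08). In ANXA5 KO against WT, 13 of 133 were higher and 13 lower, where 6.48% and 5.45% of all genes were (median 0.05). Between the knockouts, 20 of 134 were higher and 9 lower in ANXA2 KO, where 7.41% and 6.58% of all genes were (median 0.00). Examples come from the 3 genes with the smallest p of each kind. Ccl19, a chemokine of lymphocytes and dendritic cells, averaged 120.5 ± 16.1 normalised reads in ANXA2 KO (SD, n = 3) and 40.1 ± 11.8 in WT (SD, n = 4), a log2 difference of 1.61 (limma adjusted p = 0.118), and the neutrophil chemokine Cxcl3 averaged 30.7 ± 10.6 and 10.5 ± 5.58, a log2 difference of 1.51 (limma adjusted p = 0.476). The WT mean of Cxcl3 lay near the filter of 10 normalised reads, so this gene could enter the test through the ANXA2 KO libraries, where it was higher. Myd88, the adaptor of interleukin 1 and Toll-like receptors, had log2 differences of 0.36 in ANXA2 KO from WT and 0.43 in ANXA2 KO from ANXA5 KO.

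Targets of the pathway stood on both sides of WT in ANXA5 KO, with 4 of 24 higher and 8 of 24 lower at an unadjusted p under 0.05 (background 6.48% and 5.45%). Ptgs2, which encodes cyclooxygenase 2, averaged 2509 ± 682 normalised reads in ANXA5 KO and 4859 ± 1635 in WT (SD, n = 4 each), a log2 difference of -0.93 (limma adjusted p = 0.266). Plau, which encodes urokinase, averaged 228 ± 100 normalised reads in ANXA5 KO and 455 ± 106 in WT, a log2 difference of -1.08 (limma adjusted p = 0.266). Nos2, the inducible nitric oxide synthase, was on the other side, at 42.5 ± 1.90 normalised reads in ANXA5 KO and 15.6 ± 8.38 in WT, a log2 difference of 1.59 (limma adjusted p = 0.245). Cxcr2 and Csf1r, receptors of neutrophils and macrophages, had log2 differences of 0.58 and 0.44. Between the knockouts, Ptgs2 averaged 210.5 ± 94.8 CPM in ANXA2 KO (SD, n = 3) and 87.3 ± 24.0 CPM in ANXA5 KO (SD, n = 4), a log2 difference of 1.27 (edgeR adjusted p = 0.161). Cxcl10, an interferon-induced chemokine, averaged 38.8 ± 15.6 and 16.8 ± 3.99 CPM, a log2 difference of 1.21 (edgeR adjusted p = 0.113). Nos2 was lower in ANXA2 KO, at 0.373 ± 0.0274 CPM against 1.48 ± 0.0553 CPM in ANXA5 KO, a log2 difference of -1.97 (edgeR adjusted p = 0.0776). The ANXA2 KO mean lay below the filter of 0.4 CPM, so Nos2 could enter the test through the other libraries, where it was higher.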

How the data were processed

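Libraries of bone marrow stromal cells were made with NEBNext modules from 8.7 ng of RNA purified with an RNeasy kit, per the labels' protocols. Trim Galore, STAR, HTSeq, DESeq2 and the build GRCm39 are named in the submitters' processing notes, with no versions. The signal deposited by the authors was a gene's reads over the size factor of the library, and multiplying back gave whole reads in 100% of values within 0.001. The log2 fold changes, p-values and adjusted p-values deposited by the authors came from DESeq2 per the file headers. A gene with 0 reads in a knockout library was not in the tables, which touched none of the members.

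The planned test for such values was limma-trend after log2(value + 1). Genes entered it if they reached 10 in 3 libraries (ANXA2 KO and WT) or 4 libraries (ANXA5 KO and WT). The knockouts were compared with edgeR quasi-likelihood on the recovered reads of all 11 libraries (TMM scaling, at least 0.4 CPM in 3 libraries). edgeR gives no SE for this test, so the SE was derived as the absolute log2 difference over the square root of the F statistic. Two-sided p-values were adjusted by the Benjamini-Hochberg method over all genes, with 0.05 as the threshold. The 3 sample columns of ANXA2 KO carry the numbers 1, 3 and 4, which differ from the titles, so they were matched to the group only. Wild type reads were the same in both tables in 100% of shared genes, and no 2 libraries agreed within sampling noise. RPKM used GENCODE vM21 exon lengths. The members and lists were chosen with earlier results of these data known. Genes named outside the members were the 3 with the smallest p of each kind and comparison. Alternatives were other tools, scalings, pseudocounts, filters, a covariate for Xist, whose level differed within groups, and leaving out each library. Xist was at 70.1, 76.3, 0.0441 and 0.0368 CPM in WT libraries 1 to 4. In ANXA5 KO libraries 1 to 4 it was at 27.3, 0.0723, 58.8 and 18.1 CPM. In ANXA2 KO libraries 1, 3 and 4 it was at 24.7, 8.53 and 7.72 CPM. The fits were tested on simulated data. Versions were R 4.3.3, limma 3.58.1, edgeR 4.0.16 and DESeq2 1.42.0.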

Additional observations from a re-analysis of the deposited data

Results flagged for a closer look

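In ANXA5 KO, 3 members had 1 library far from the other 3 by Dixon's test, which flags about 1 in 20 groups by chance. The test covered 68 groups, those of the members in ANXA5 KO and in WT. ANXA2 KO was not tested for outlying libraries. Il11 was at 187 normalised reads in library 2, against 48.3 to 70.9 in the others. Ccl2 was at 3140 normalised reads in library 2, against 776 to 1110 in the others. Cxcl5 was at 48.1 normalised reads in library 3, against 14.8 to 17.2 in the others. The difference of the knockouts in Icam1, 1.14 on the log2 scale (ANXA2 KO minus ANXA5 KO), passed a test of that difference itself, with higher levels in 3 of 3 ANXA2 KO libraries than in any of the 4 ANXA5 KO libraries.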

How the results depend on the processing

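With DESeq2 2 members passed in ANXA2 KO against WT and 9 in ANXA2 KO against ANXA5 KO, where the main tests gave 0 and 1. Over all genes DESeq2 called 0.593% and 2.29%, where the main tests called 0.112% and 0.267%. Between the knockouts, 2 members passed (Icam1 and Irf1) in a fit of the knockouts alone and with Xist as a covariate, and 0 to 2 passed when a library was left out: 0 without ANXA2 KO library 1, ANXA5 KO library 3 or ANXA5 KO library 4, 2 without ANXA5 KO library 2 (Icam1 and Ccl2) and 2 without WT library 3 (Icam1 and Irf1). Leaving out a WT library in this fit was added after seeing the data. The cause of these moves was not tested, although a fit without a library rests on fewer samples. Against WT, 0 members passed in every fit that left out a library. The Xist covariate in ANXA2 KO against WT left 0 members called, while the calls over all genes were 284 with it and 18 without it. In ANXA5 KO against WT, Tnf lay near 0 and its log2 difference reversed to 0.0256 with edgeR, 0.0333 with DESeq2 and 0.0239 in the joint fit, and over single libraries left out it ranged from -0.215 to 0.161. The range for Nfkbia was -0.201 to 0.0227. No other direction of a member named with its log2 difference reversed. The numbers of the titles did not pair ANXA5 KO with WT libraries (same-number correlations of -0.25 to 0.07), and with the replicate block 0 members passed. No paired analysis was made for ANXA2 KO because its columns do not carry the numbers of the titles. With 3 or 4 libraries a group, the 95% intervals of the chemokines against WT spanned more than 1 on the log2 scale for most.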
